A study of Homo sapiens with 3 samples.

Results

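The clade B serpins are a branch of the serpin family of protease inhibitors whose genes lie in a cluster on chromosome 6 and another on chromosome 18. The 10 genes described here are SERPINB1, SERPINB2, SERPINB3, SERPINB4, SERPINB5, SERPINB6, SERPINB7, SERPINB8, SERPINB9 and SERPINB13, and they were found by their Ensembl identifiers among the 58037 genes of the count table. The human annotation holds 13 clade B serpin genes, and the remaining 3, SERPINB10, SERPINB11 and SERPINB12, are given for comparison. Their RNA was measured in RWPE1 cells, an established line of epithelial cells from a normal adult human prostate that was immortalised with papillomavirus. OLFM4, a secreted olfactomedin-domain glycoprotein, was the gene manipulated. There were 3 libraries with 1 per genotype, namely OLFM4-wild type, OLFM4-Knock out and OLFM4-active. Per the study's methods, RNA came from cells sorted by a green fluorescent protein reporter, and reporter clones were selected with puromycin. The results of the study describe this sorting for the knockout cells. They name no reporter for the wild cells of the bulk RNA comparison. Knockout reporter cells were made with CRISPR/Cas9 nickase plasmids against OLFM4, and CRISPR/Cas9 activation plasmids for OLFM4 are named for the reporter cells with wild-type OLFM4. The sources used here do not say which plasmids the sequenced OLFM4-wild type and OLFM4-active cells each received.

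The counts summed to between 16309906 and 58837147 per library, with the OLFM4-knockout library the deepest. Levels are given in CPM, counts scaled to a common library size after TMM correction (trimmed mean of M-values). OLFM4 itself stood at 11.8 CPM in the OLFM4-wild type library, 2.55 in the OLFM4-Knock out library and 0.670 in the one labelled OLFM4-active. The last value goes against its label, so that library is called active-labelled throughout, and no direction of OLFM4 activation is drawn from it. The others are called wild and knockout. All 7 basal epithelial markers passed a mean of 1 CPM, and their summed level was 18944 CPM in the wild, 41509 CPM in the knockout and 22969 CPM in the active-labelled library. Of 7 luminal prostate markers 4 passed it, among them KRT8 at 282, 231 and 146 CPM and KRT18 at 177, 191 and 157 CPM in the same order. KLK3, the gene of prostate-specific antigen, had 2 counts in the wild library and 0 in the others. ACP3, prostatic acid phosphatase, stood at 8.37, 5.42 and 4.19 CPM. Of 7 immune markers 1 passed it, CD68 at 31.4, 24.4 and 19.8 CPM, and PTPRC, the pan-leukocyte gene, had 0, 2 and 0 counts in the same order. Of 7 stromal and endothelial markers 2 passed it. COL1A1 stood at 30.2, 25.8 and 21.8 CPM and COL1A2 at 2.75, 5.22 and 1.004 CPM in the same order. CDH5, an endothelial cadherin, was the only one of the 7 with 0 counts in every library. With 1 library per genotype there was no replicate check and no test, and every value below compares libraries, not conditions. The 95% intervals are exact (Clopper-Pearson) and hold counting error alone.

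Serpins are suicide substrates. A flexible reactive centre loop is cut by the target protease, which then stays covalently trapped while the loop inserts into a sheet of the inhibitor. Most serpins are secreted, whereas clade B members lack a classical signal peptide and act mainly inside the cell or on nearby cells, where they are known to guard epithelia and leukocytes against misplaced proteases. The sequence of the loop sets which protease is caught, and a few members have lost inhibition altogether. In stratified epithelia several of the chromosome 18 genes are known as markers of basal or suprabasal keratinocytes.

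SERPINB3 and SERPINB4, the squamous cell carcinoma antigens, show how a near-identical pair can differ at the loop, and their sequences are given for that reason. SERPINB3 is known to inhibit cysteine proteases such as cathepsins L, S and K, and SERPINB4 serine proteases such as cathepsin G and chymase. In GENCODE version 44 on GRCh38 their coding sequences are 1170 bases each and 95.2% identical, with 56 differences. The 120 bases that differ most hold 18 of them, at coding bases 952 to 1071 (codons 318 to 357), near the end of the protein, where serpins carry the reactive centre loop. Capitals mark the bases that differ between the genes.
SERPINB3: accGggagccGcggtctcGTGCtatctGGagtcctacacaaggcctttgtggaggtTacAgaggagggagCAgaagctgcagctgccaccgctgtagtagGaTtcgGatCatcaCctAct
SERPINB4: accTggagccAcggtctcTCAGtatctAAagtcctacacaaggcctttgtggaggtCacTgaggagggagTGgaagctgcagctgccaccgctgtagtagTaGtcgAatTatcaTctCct
The 250 bases before their start sites, by contrast, differed at 3 positions, again in capitals (RefSeq, GRCh38.p14, minus strand, chr18:63661894-63662143 for SERPINB3 and chr18:63644257-63644506 for SERPINB4).
SERPINB3: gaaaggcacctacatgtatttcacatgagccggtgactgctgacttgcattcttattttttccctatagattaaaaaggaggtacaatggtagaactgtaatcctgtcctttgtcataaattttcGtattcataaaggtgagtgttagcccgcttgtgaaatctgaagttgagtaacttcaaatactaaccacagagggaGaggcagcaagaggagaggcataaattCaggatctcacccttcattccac
SERPINB4: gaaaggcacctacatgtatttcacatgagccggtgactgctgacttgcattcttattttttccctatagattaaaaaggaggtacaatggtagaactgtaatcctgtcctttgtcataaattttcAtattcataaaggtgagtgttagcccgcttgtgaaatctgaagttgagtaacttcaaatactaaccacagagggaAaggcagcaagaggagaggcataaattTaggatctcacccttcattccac
No other pair of the 10 members came near this identity. SERPINB8 and SERPINB9 shared 73.2% of aligned coding bases, SERPINB6 and SERPINB9 72.8%, and SERPINB3 and SERPINB5, the pair furthest apart, 57.8%.

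In all 3 libraries the family was dominated by SERPINB5, maspin, a non-inhibitory member known as a tumour suppressor of breast and prostate epithelium. SERPINB5 lies on the plus strand of chromosome 18 (ENSG00000206075.13, chr18:63476958-63505085). It had 6590 counts in the wild library, 29514 in the knockout library and 10847 in the active-labelled library, or 363, 575 and 454 CPM. It made up 63.8% (62.8 to 64.7) of the summed counts of the 10 members in the wild library, 69.8% (69.3 to 70.2) in the knockout library and 69.6% (68.9 to 70.3) in the active-labelled library. Per kilobase of annotated exon, its level in the wild library was higher than that of 98.8% of protein-coding genes. SERPINB13, hurpin or headpin, a keratinocyte inhibitor of cathepsins L and K, took 12%, 12.5% and 10.4% of the members' counts in the same order, and SERPINB3 took 7.07%, 4.43% and 3.13%.

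**Figure D1:**
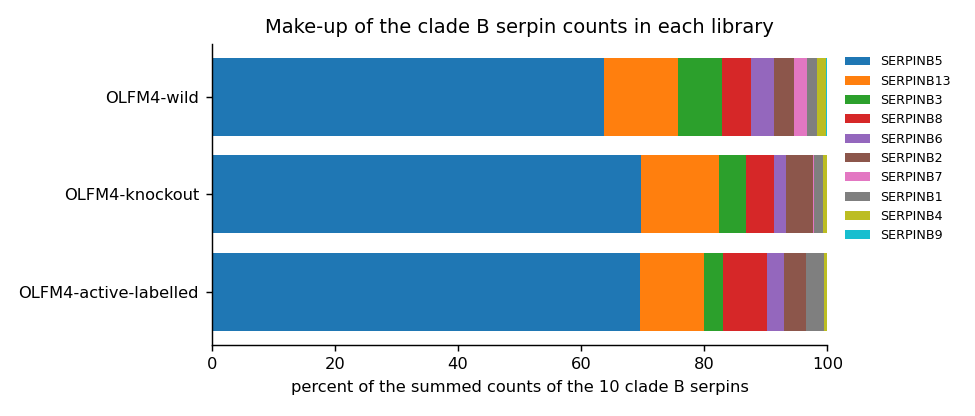
Bars show the percent of the summed counts of the 10 clade B serpins that each gene took (x axis) in each of the 3 libraries (y axis), with 1 library per bar. SERPINB5 filled 63.8% of the wild bar and 69.8% of the knockout bar, and SERPINB13 came next in each.

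Levels were compared between genes per kilobase of the union of annotated exons. In the wild library SERPINB5 stood at 96.9 CPM per kilobase, SERPINB3 at 23.6, SERPINB13 at 15.1 and SERPINB2 at 6.57. SERPINB8, SERPINB7 and SERPINB4 followed at 4.72, 4.53 and 4.41 CPM per kilobase, with counting intervals that overlapped from each to the next. SERPINB1 at 3.14, SERPINB6 at 1.61 and SERPINB9 at 0.199 CPM per kilobase closed the order. In the knockout library SERPINB13 (22.8 CPM per kilobase) stood before SERPINB3 (21.4), with overlapping intervals, and SERPINB7 came last at 0.170, next to SERPINB9 at 0.254, again with overlapping intervals. The library labelled OLFM4-active had SERPINB13 at 14.9 and SERPINB3 at 11.9 CPM per kilobase, with intervals that did not overlap. SERPINB7 was last there too, at 0.0952 CPM per kilobase. The summed level of the 10 members was 569 CPM in the wild, 824 CPM in the knockout and 652 CPM in the active-labelled library. Without SERPINB5 the sums were 206, 249 and 198 CPM. In bulk RNA, fewer cells that express a gene and less RNA of it per cell cannot be told apart.

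**Figure D2:**
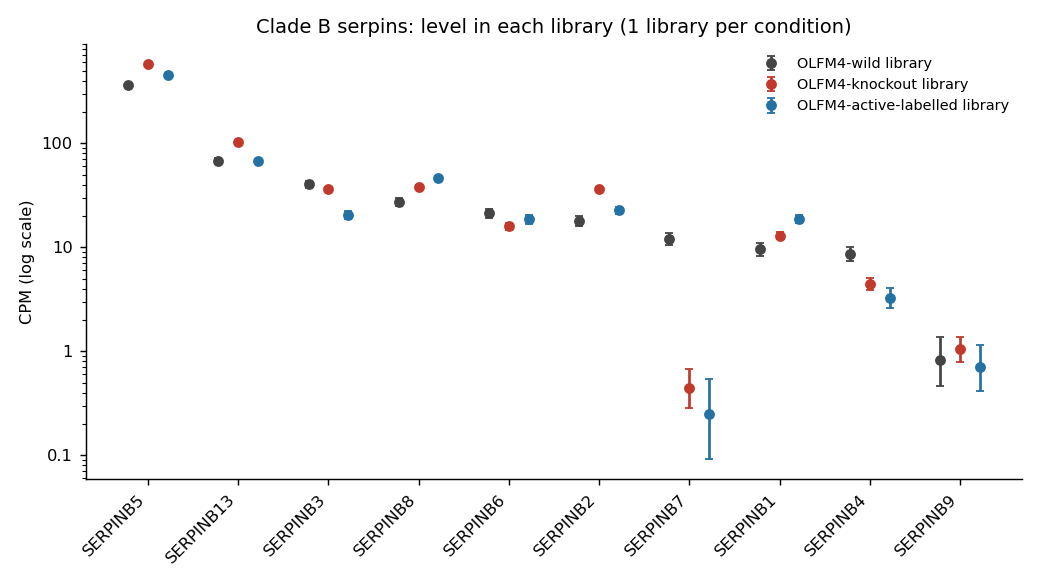
Points show the level of each clade B serpin in CPM (y axis, log scale) in each of the 3 libraries, and bars show 95% counting intervals. The widest spread is that of SERPINB7, at 11.9 CPM in the wild library and below 1 CPM in the other libraries.

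SERPINB7, megsin, is known from the upper epidermis, where its loss causes a keratoderma of the palms and soles. The gene lies on the plus strand of chromosome 18 (ENSG00000166396.12, chr18:63752935-63805376). It had 217 counts in the wild library, 23 in the knockout library and 6 in the active-labelled library, or 11.9, 0.448 and 0.251 CPM. The wild library was thus the high library, and the counting intervals of the other libraries lay far below it. On the log2 scale the difference from the wild library was -4.71 (-5.42 to -4.11) in the knockout library and -5.46 (-7.03 to -4.43) in the active-labelled library. Of 16600 genes with a mean of 1 CPM or more over the 3 libraries, 11 were lower than SERPINB7 in the knockout comparison and 9 in the active-labelled one. Between the knockout and the active-labelled library the difference was 0.75 with an interval from -0.50 to 2.42, so that no difference was detectable at this depth. Both comparisons share the wild library, so its level enters both values. SERPINB7 passed the mean of 1 CPM only through that library.

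RefSeq gives SERPINB7 3 start sites. The 250 bases before the most downstream are shown because they hold 2 matches of the AP-1 motif TGANTCA, in capitals, at -206 and -45 from that start (GRCh38.p14, plus strand, chr18:63777531-63777780).
SERPINB7: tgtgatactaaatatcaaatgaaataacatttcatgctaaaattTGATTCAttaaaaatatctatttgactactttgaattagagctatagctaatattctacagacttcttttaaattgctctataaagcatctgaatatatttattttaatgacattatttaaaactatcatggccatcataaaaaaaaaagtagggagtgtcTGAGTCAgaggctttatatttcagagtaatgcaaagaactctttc
The window before the middle start, at base 63775418, held matches at -154 and -39, and the window before the most upstream start held none. Matches were searched on both strands, and the motif reads as itself on the other strand. By window, 6 of the 15 windows of the members held a match, beside 6.57% of 35116 such windows in the RefSeq table. By gene, 5 of the 10 members held a match in a 250-base window (SERPINB2, SERPINB5, SERPINB7, SERPINB8 and SERPINB13). Some genes have several windows, and no share per gene over all genes was computed. The interferon response element was in no window of the members and in 3.02% of all windows. A match is a description of letters, not a binding site.

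Squamous differentiation genes were mostly lower in the same libraries as SERPINB7. Of 15 such genes 11 were lower in the knockout library by a log2 fold change past 1 and 1 was higher, beside 7.56% and 5.77% of all 16600 genes. Their median was -2.53, beside a median of 0.10 over all genes. In the active-labelled library 11 were lower, none was higher and the median was -2.28, beside 6.73%, 3.78% and 0.05 over all genes. Like SERPINB7, the lower genes SPRR3, SPRR2A, CNFN and TGM3 stood below 1 CPM in both other libraries. They passed the mean of 1 CPM only through the wild library. FLG, the filaggrin gene of the granular layer, stood at 191, 5.92 and 6.49 CPM in the wild, knockout and active-labelled libraries. KRT1, a suprabasal keratin, stood at 463, 80.2 and 137 CPM. KRT10, its partner keratin, stood at 1217, 1331 and 842 CPM without that pattern, and TGM1, a transglutaminase of the cornified envelope, was highest in the knockout library at 177, 363 and 157 CPM. The summed level of the 15 genes was 2625, 2013 and 1358 CPM in that order, and their part in the SERPINB7 difference was not tested. Among protein-coding genes with a mean of 1 CPM or more, those whose log2 CPM over the 3 libraries lay closest to SERPINB7 were PDZK1IP1, FLG2, SPRR2E, IFI44L and FLG, at Euclidean distances of 0.277 to 0.636. That list was drawn up after the SERPINB7 values were seen. PDZK1IP1, FLG2 and SPRR2E too were below 1 CPM in both other libraries and passed the mean only through the wild library.

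SERPINB5 was higher in both other libraries than in the wild library, by a log2 fold change of 0.66 (0.63 to 0.70) in the knockout library and 0.32 (0.28 to 0.37) in the active-labelled library. Neither value passed 1. With library totals in place of TMM scaling the values were 0.31 and 0.21. The 250 bases before its start are given because it is the most abundant member, with its AP-1 match at -146 in capitals (RefSeq, GRCh38.p14, plus strand, chr18:63476708-63476957).
SERPINB5: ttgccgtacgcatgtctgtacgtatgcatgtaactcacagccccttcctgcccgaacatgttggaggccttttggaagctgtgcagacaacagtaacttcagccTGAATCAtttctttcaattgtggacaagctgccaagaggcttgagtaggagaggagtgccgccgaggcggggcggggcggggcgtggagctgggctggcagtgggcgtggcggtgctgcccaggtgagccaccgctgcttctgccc
The summed basal markers were also higher in both libraries. In the knockout library 3 of 7 were higher past a log2 fold change of 1, beside 5.77% of all 16600 genes, and their median was 0.92. KRT5 stood at 12232, 27077 and 13686 CPM, and KRT14 at 4006, 9666 and 5542 CPM, in the wild, knockout and active-labelled libraries. Their part in the SERPINB5 values was not tested.

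SERPINB2, plasminogen activator inhibitor type 2, is known to inhibit urokinase (PLAU) and tissue plasminogen activator (PLAT). The gene lies on the plus strand (ENSG00000197632.8, chr18:63871692-63903888). It had 327, 1854 and 541 counts, or 18 CPM in the wild, 36.1 CPM in the knockout and 22.6 CPM in the active-labelled library. The knockout library was the high one, by a log2 fold change of 1.003 (0.83 to 1.18) over the wild library, while the active-labelled library differed from it by 0.33 (0.13 to 0.53). The first of these sat at the limit of 1, its interval ran to both sides, and with library totals it was 0.65. The 250 bases before its RefSeq start hold an AP-1 match at -102, in capitals (GRCh38.p14, plus strand, chr18:63887455-63887704), and are shown because SERPINB2 is, under TMM scaling, the only member past 1 upward in the knockout library.
SERPINB2: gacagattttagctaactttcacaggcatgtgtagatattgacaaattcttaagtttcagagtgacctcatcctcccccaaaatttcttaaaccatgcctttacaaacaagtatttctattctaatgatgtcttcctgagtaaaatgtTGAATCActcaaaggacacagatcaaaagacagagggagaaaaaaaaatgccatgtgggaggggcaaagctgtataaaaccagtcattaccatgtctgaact
Part of its reads could belong to another gene model. ENSG00000289724, a protein-coding model on the same strand that overlaps SERPINB2 and SERPINB10, shares 547 exon bases with SERPINB2 and 17.4% of its 75-base words, and it has no row in the count table.

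Among its target proteases, PLAU stood at 69.0, 82.2 and 47.2 CPM and PLAT at 4.29, 10.6 and 3.14 CPM in the wild, knockout and active-labelled libraries. PLAT was higher in the knockout library by a log2 fold change of 1.30 (0.96 to 1.67), whereas PLAU differed by 0.25 (0.16 to 0.35). Of 9 genes of plasminogen activation 7 passed the mean of 1 CPM. In the knockout library 2 were higher and 1 lower past 1, beside 5.77% and 7.56% of all 16600 genes. SERPINE2, protease nexin 1, was the lower one in the knockout library, at 48.3, 20.6 and 31.5 CPM. PLG, plasminogen itself, was listed at 0 counts in every library. The 5 protein-coding genes whose log2 CPM lay closest to SERPINB2 over the 3 libraries, among 9661 with a mean of 10 CPM or more, were ARMC6, POLR1H, SLC27A4, DHRS3 and LRWD1, at distances of 0.00274 to 0.0193.

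SERPINB3 (ENSG00000057149.15, chr18:63655197-63661893, minus strand) had 731, 1875 and 487 counts, or 40.2, 36.5 and 20.4 CPM in the wild, knockout and active-labelled libraries. Its low library was the one labelled OLFM4-active, at a log2 fold change of -0.98 (-1.15 to -0.81) from the wild library, while the knockout library differed by -0.14 (-0.26 to -0.01). SERPINB4 (ENSG00000206073.10, chr18:63637259-63644256, minus strand) had 158, 226 and 78 counts, or 8.70, 4.40 and 3.26 CPM. Both other libraries lay below the wild library, by a log2 fold change of -0.98 (-1.28 to -0.68) in the knockout and -1.41 (-1.82 to -1.01) in the active-labelled library. The balance of the pair differed between libraries. There were 21.6 SERPINB4 counts per 100 SERPINB3 counts (18.1 to 25.7) in the wild library, 12.1 (10.5 to 13.8) in the knockout library and 16 (12.4 to 20.4) in the active-labelled library. The wild and knockout intervals did not overlap. Of the 75-base words in their exons, 10.4% of SERPINB3 and 8.72% of SERPINB4 occur in the other gene, and pairs that map equally well to both were left out by the counting of unique alignments. SERPINB3 also shares 620 exon bases with SERPINB11 on the opposite strand, and the counting used strand.

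SERPINB13 (ENSG00000197641.11, chr18:63586989-63604639, plus strand) had 68.2, 103 and 67.7 CPM in the same order. Only the knockout library stood apart, by a log2 fold change of 0.60 (0.51 to 0.69) from the wild library, and the active-labelled library differed by -0.01 (-0.12 to 0.10). Among the cysteine cathepsins, the family of lysosomal proteases that includes the known targets of SERPINB3 and SERPINB13, 9 of 11 passed the mean of 1 CPM. None was past 1 in the knockout library and 2 were lower in the active-labelled library, beside 6.73% of all 16600 genes lower there. CTSB stood at 284, 265 and 246 CPM, CTSC at 157, 163 and 140 CPM and CTSV, cathepsin V of keratinocytes, at 79.4, 140 and 93.0 CPM. The cystatins, which block the same proteases by another fold, had 4 of 13 genes past the mean of 1 CPM. Of these 1 was lower past 1 in each comparison with the wild library, beside 7.56% (knockout) and 6.73% (active-labelled) of all genes. CSTA, the cystatin of the cornified envelope, stood at 175, 145 and 119 CPM, and CST6, a secreted cystatin of skin, at 2.20, 0.409 and 0.628 CPM. CST6 was the lower one, and it passed the mean of 1 CPM only through the wild library.

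SERPINB8 (ENSG00000166401.14, chr18:63970029-64019779, plus strand), known to inhibit the proprotein convertase furin, had 27.2, 38.3 and 46.0 CPM. It was lowest in the wild library, with log2 fold changes of 0.49 (0.35 to 0.64) in the knockout and 0.76 (0.60 to 0.91) in the active-labelled library. FURIN itself stood at 41.7, 41.2 and 41.9 CPM, and its log2 fold change in the knockout library was -0.02 (-0.14 to 0.10). SERPINB8 shares 370 exon bases with HMSD on the same strand, and there were 19.0, 21.6 and 18.5 HMSD counts per 100 SERPINB8 counts, with overlapping intervals.

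Of the 3 members of the chromosome 6 cluster, SERPINB1 and SERPINB9 are best known from leukocytes. SERPINB1 (ENSG00000021355.12, chr6:2832332-2841959, minus strand), which inhibits neutrophil elastase, had 174, 665 and 447 counts, or 9.58, 13 and 18.7 CPM. It was the member furthest up in the active-labelled library, at 0.96 (0.71 to 1.23) on the log2 scale, with 0.43 (0.19 to 0.69) in the knockout library. With library totals the knockout value was 0.08. SERPINB6 (ENSG00000124570.17, chr6:2948159-2972165, minus strand), an inhibitor of cathepsin G, had 21.3, 15.9 and 18.5 CPM. It was lower in the knockout library, at a log2 fold change of -0.43 (-0.60 to -0.25), and its interval in the active-labelled library reached 0. SERPINB9 (ENSG00000170542.5, chr6:2887270-2903309, minus strand), which protects cytotoxic lymphocytes from granzyme B, had 15, 54 and 17 counts, or 0.826, 1.05 and 0.712 CPM. It missed the mean of 1 CPM, and its intervals included 0 in each of the 3 comparisons, so that no difference was detectable at this depth. Of 11 serine proteases that clade B serpins are known to inhibit, 4 passed the mean of 1 CPM and 5 had 0 counts in every library, among the latter ELANE, CTSG and GZMB, the genes of neutrophil elastase, cathepsin G and granzyme B. A floor of 3 counts, taken as the limit that a count of 0 allows, is 0.165, 0.0584 and 0.126 CPM in the 3 libraries, and the exact 95% upper limits of a count of 0 are 0.203, 0.0719 and 0.154 CPM.

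Of the 10 members, 9 passed the mean of 1 CPM, and of these SERPINB2 was higher and SERPINB7 lower past a log2 fold change of 1 in the knockout against the wild library. Over all 16600 genes 5.77% were higher and 7.56% lower by that rule, or 2.22% and 13.9% with library totals, and 1 of 9 members in each direction was not read as a result about the family. In the active-labelled library against the wild library SERPINB4 and SERPINB7 were lower and no member was higher, beside 6.73% and 3.78% of all genes. Between the knockout and the active-labelled library no member was past 1, beside 2.95% of all genes higher and 3.39% lower, and none was past 2, beside 0.259% and 0.175%. Past a log2 fold change of 2, SERPINB7 was lower in both comparisons with the wild library, beside 1.44% of all genes lower in the knockout library and 1.54% in the active-labelled library, and no other member was. TMM scaling in place of totals shifts each log2 fold change by 0.35 in the knockout comparison, by 0.11 in the active-labelled comparison and by 0.24 between those libraries. The median of the 10 members was 0.37, -0.11 and 0.48 in these comparisons, beside 0.10, 0.05 and 0.08 over all genes. With library totals the median of the members in the knockout comparison was 0.02, beside -0.26 over all genes.

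**Figure D3:**
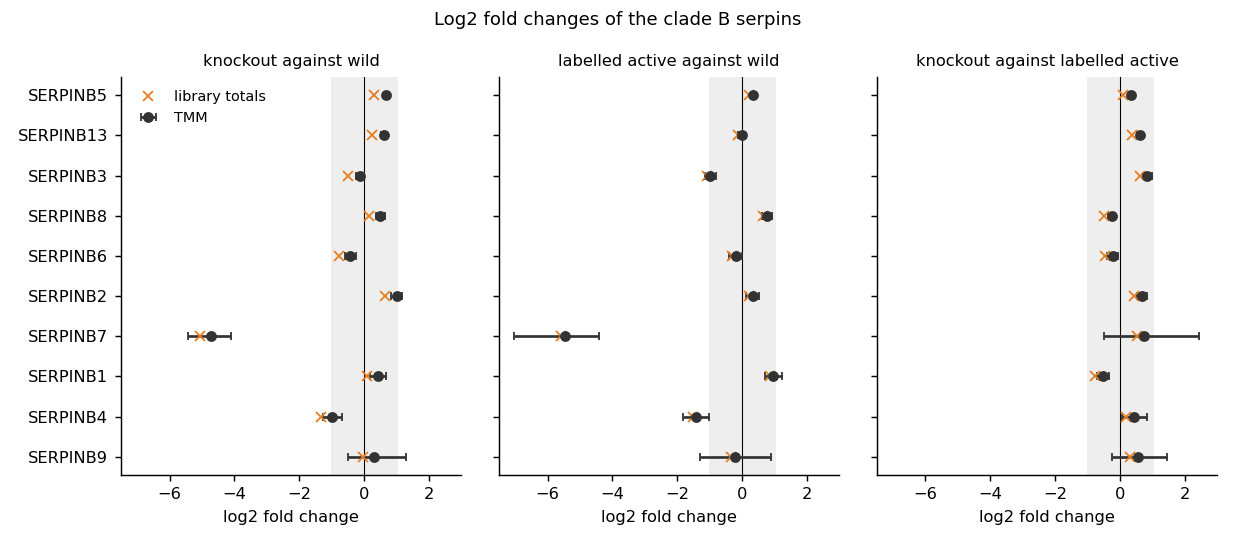
Points show the log2 fold change of each clade B serpin (x axis) in 3 comparisons between libraries, with 95% counting intervals, crosses show the value with library totals, and the grey band spans -1 to 1. SERPINB7 lies at -4.71 and -5.46 in the panels against the wild library, while SERPINB2 in the knockout panel (1.003) and SERPINB4 in the active-labelled panel (-1.41) are the other points past the band.

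**Figure D4:**
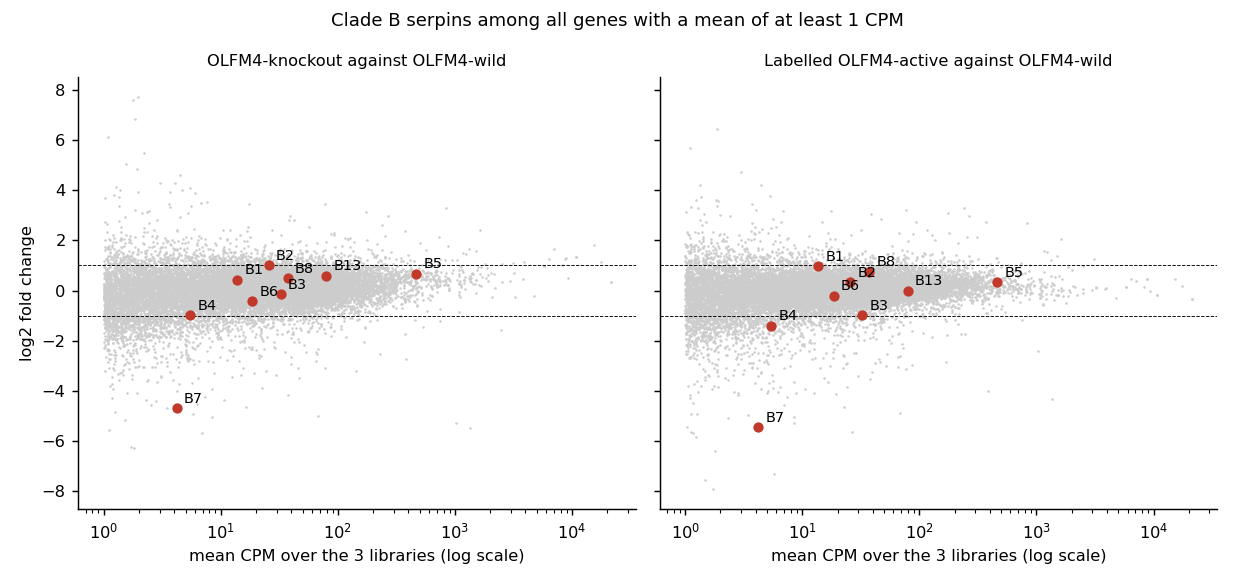
Grey points are the 16600 genes with a mean of 1 CPM or more, at their mean CPM (x axis, log scale) and log2 fold change (y axis) against the wild library, red points are the 9 clade B serpins among them, and dashed lines mark 1 and -1. SERPINB7 is at the lower edge of the cloud in both panels, and SERPINB5 is the most abundant member.

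The 0.53 log2 fold change (0.50 to 0.57) of the summed members in the knockout library was 0.27 (0.22 to 0.33) without SERPINB5, and -0.08 without it when scaled by library totals. The 3 chromosome 6 genes summed to 31.7, 29.9 and 38.0 CPM and the 7 chromosome 18 genes to 537, 794 and 614 CPM in the wild, knockout and active-labelled libraries. Along the 543 kb of the chromosome 18 cluster in the order of gene starts, SERPINB4, SERPINB3 and SERPINB7 were lower in both other libraries than in the wild library. For SERPINB3 the knockout value was only -0.14 (-0.26 to -0.01). SERPINB2 and SERPINB8, which follow them, were higher in both. By point value SERPINB11, which starts between SERPINB4 and SERPINB3, was also lower in both. SERPINB10 and HMSD, which start between SERPINB2 and SERPINB8, were likewise higher in both. For SERPINB11 the interval in the knockout library (-0.21 to 0.19) included 0. For SERPINB10 the interval in the active-labelled library (-0.16 to 0.48) did so. SERPINB7, the lowest relative to the wild library, lies between SERPINB3 and SERPINB2 in the order of gene starts. SERPINB11 stood at 15.5, 15.4 and 7.74 CPM and SERPINB10 at 7.65, 14.8 and 8.54 CPM. SERPINB11 counts per 100 SERPINB3 counts were 38.6, 42.2 and 38.0, and SERPINB10 counts per 100 SERPINB2 counts were 42.5, 40.9 and 37.7, with overlapping intervals in both pairs. SERPINB12 had 9, 0 and 4 counts. Beyond the ends of the clusters, WRNIP1 and NQO2 on chromosome 6 stood at 40.8, 57.0 and 50.0 CPM and at 38.0, 53.2 and 43.4 CPM. VPS4B, before SERPINB5 on chromosome 18, stood at 61.6, 58.7 and 54.5 CPM, and CDH7 beyond SERPINB8 had 0 counts in every library.

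**Figure D5:**
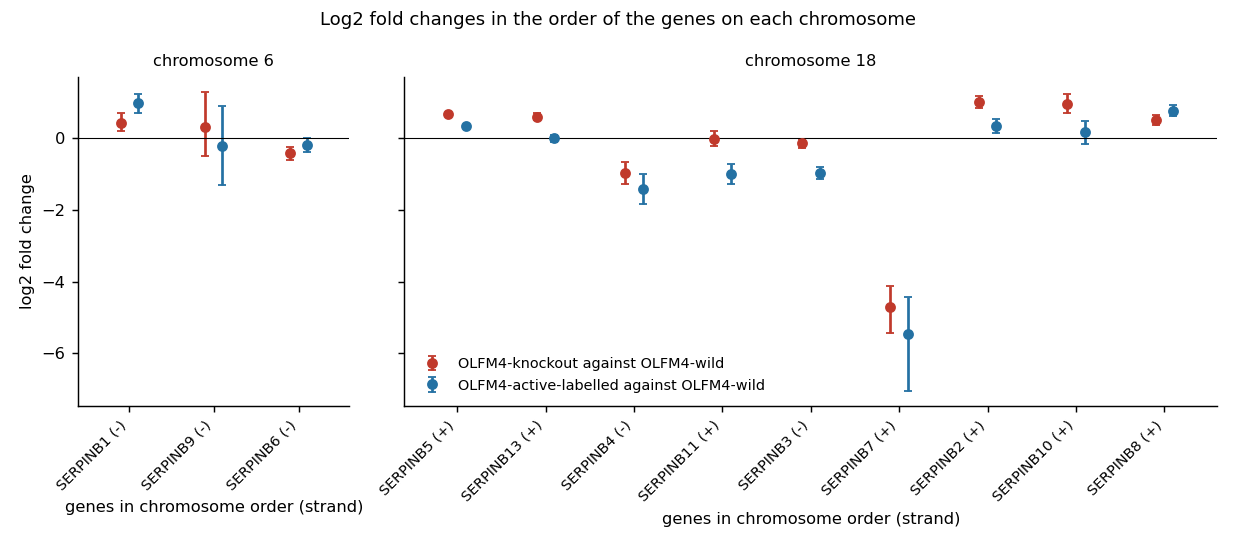
Points show the log2 fold change against the wild library (y axis) of the clade B serpins in their order along each chromosome (x axis), with strand in brackets and 95% counting intervals. SERPINB12, with 0 counts in the knockout library, is left out, and SERPINB7 stands far below its neighbours in both libraries.

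Between the knockout and the active-labelled library 5 members had intervals above 0, 3 below and 2 that included it. Among those above 0 SERPINB3 was furthest up, at 0.84 (0.70 to 0.99), followed by SERPINB2 at 0.67 (0.53 to 0.81) and SERPINB13 at 0.61 (0.53 to 0.69). SERPINB1 was the member furthest down, at -0.53 (-0.71 to -0.35). Other epithelial protease inhibitors were also compared in both libraries with the wild library. Of 16 such genes 11 passed the mean of 1 CPM, and 5 were lower past 1 in each of the knockout and active-labelled libraries, with none higher. Over all 16600 genes 7.56% were lower and 5.77% higher in the knockout library, and 6.73% and 3.78% in the active-labelled library. PI3, the elastase inhibitor elafin, stood at 98.7, 5.44 and 8.62 CPM, SLPI, its secreted relative, at 146, 26.9 and 23.2 CPM, and SPINK5, the inhibitor of epidermal kallikreins, at 117, 21.3 and 20.4 CPM. SPINT2, a Kunitz-type inhibitor of membrane serine proteases, stood at 202, 293 and 187 CPM. Of 21 serpins outside clade B 6 passed the mean of 1 CPM and 8 had 0 counts in every library. Beside the same shares of all genes, 2 were higher and 1 lower past 1 in the knockout library and 2 were higher in the active-labelled library.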

How the data were processed

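Total RNA of RWPE1 cells, reporter-sorted per the study's methods, was cleared of ribosomal RNA and read as stranded pairs, with 1 library for each genotype. The authors trimmed reads with cutadapt, aligned them with HISAT2 to GRCh38, and counted pairs per gene with featureCounts, and the deposited values are whole-number counts, not normalized. The version of their annotation is not given in the sources used here. Of 58037 genes 56993 had an identifier in GENCODE version 44, which gave positions, exon lengths and gene types. Promoter windows came from RefSeq (GRCh38.p14).

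Library sizes were scaled with TMM factors of 1.11, 0.872 and 1.03 (wild, knockout, active-labelled) in edgeR 4.0.16, and log2 fold changes follow voom of limma 3.58.1 with an offset of 0.5 counts, in R 4.3.3. Other steps used Python 3.11.15, numpy 2.4.6, pandas 2.3.3, scipy 1.17.1 and matplotlib 3.10.9. A gene was called past a log2 fold change of 1 among 16600 genes with a mean of no less than 1 CPM. The procedure was tested on simulated data. Alternatives were library totals, DESeq2 1.42.0 size factors, upper quartile factors, offsets of 1 and 5 counts, thinned libraries, other call rules, filters, gene sets and gene lengths.

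The text names all members, the other clade B genes, up to 4 genes of each of 12 lists by mean CPM plus any past a log2 fold change of 2 in the knockout library with a mean of no less than 10 CPM, the cluster neighbours, the 5 genes nearest to SERPINB2, and OLFM4. PLG, ELANE, CTSG, GZMB, KLK3, CDH5 and the genes nearest to SERPINB7 were named after their values were seen. Some results that the rule covers are left out here. The members and lists were chosen with earlier results of these data known.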

Additional observations from a re-analysis of the deposited data

How the results depend on the processing

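SERPINB7 kept its direction against the wild library in every alternative run, with log2 fold changes of -5.06 to -4.49 in the knockout and -6.34 to -4.73 in the active-labelled library. In the knockout comparison the 2 members past 1 became 1, SERPINB7, with an offset of 5 counts, with the 95% interval wholly past 1, and past a log2 fold change of 2. With library totals and with upper quartile factors the 2 members were SERPINB4 and SERPINB7, both lower, in place of SERPINB2 and SERPINB7, and in thinned libraries there were 3, SERPINB2, SERPINB4 and SERPINB7. In the active-labelled comparison the 2 members became 4 in thinned libraries, with SERPINB1 higher and SERPINB3, SERPINB4 and SERPINB7 lower, 3 with library totals (SERPINB3, SERPINB4 and SERPINB7, all lower), and 1 past a log2 fold change of 2. Between the knockout and active-labelled libraries 0 became 1, SERPINB7, in thinned libraries. The cause was not tested. With library totals 8 of the 10 members left their counting interval in the knockout comparison, among them SERPINB1 (0.08), SERPINB8 (0.14), SERPINB13 (0.24) and SERPINB6 (-0.78). In the active-labelled comparison 2 did so, and between those libraries 7. The sign changed for SERPINB9 with library totals (-0.04, knockout) and for SERPINB13 with DESeq2 size factors, upper quartile factors and thinned libraries (active-labelled). Over all genes, 2212 were past 1 in the knockout comparison, 11308 without a filter, 810 at a mean of 10 CPM and 1439 among protein-coding genes. In the active-labelled comparison the counts were 1744, 11841, 513 and 1156, and between those libraries 1053, 9918, 333 and 625. Per kilobase of union exon or of the longest transcript, 3 members reached 10 CPM per kilobase in the wild library. No paired analysis was possible because there was 1 library per group. Leaving out a replicate was likewise not possible. Depth limits SERPINB9 and the low SERPINB7 values, which rest on 6 to 54 counts.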
